A study of Mus musculus with 8 samples.

Results

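The genes described here carry out or control glucose uptake, glycolysis, lactate handling and the response to low oxygen, and were read on Affymetrix arrays from activated mouse CD4 T cells. They were listed by name from the known pathways, 40 genes in all, by a rule that uses no measured value, though with earlier results of these data known. Of these, 37 had a probe set annotated to that gene alone, and 35 were bright enough to be tested, among 9454 genes tested in all. Eno2 (scaled signals of 18.2 to 45.1) and Pdk2 (29 to 61.9) stayed under the brightness filter of 65, and Gpi1, Eno1 and Bnip3l had no probe set annotated to them alone, so these 3 were not analysed here.

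The cells were naive CD4 T cells from spleen, sorted for high CD62L, low CD44 and no CD25 (purity over 98%), and were cultured for 24 h in medium that held 2 ng/ml TGF-b or none. All groups, those without TGF-b included, received plate-bound antibody to CD3e (1 ug/ml), antibody to CD28 (1 ug/ml), IL-2 (10 ng/ml) and blocking antibodies to IFN-g and IL-4 (10 ug/ml each). The genotypes, all labelled C57BL/6J, were wild type (WT), Smad2del/del (Smad2KO, a conditional knockout made only in T cells), Smad3-/- (Smad3KO, for which the labels name no restriction to T cells) and Smad2del/del Smad3+/- (here Smad2KO_Smad3het). The last of these stood in for cells lacking both Smads, whose naive cells were too few to collect. The TGF-b receptor acts through the transcription factors Smad2 and Smad3, and the design asks which responses to TGF-b need each of them. Every genotype had 1 array with and 1 without TGF-b, 8 arrays in all. No label ties the cultures to separate animals, and the p-values therefore measure only the spread between these samples, which may be technical.

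Glucose enters T cells through the transporters GLUT1 and GLUT3, is trapped by hexokinase, committed to breakdown by phosphofructokinase, and turned into pyruvate by the enzymes of lower glycolysis. Activated T cells send much of that pyruvate to lactate, which leaves through monocarboxylate transporters, while pyruvate dehydrogenase kinases limit its entry into mitochondria. Many of these genes are known targets of HIF-1, a pair of HIF-1 alpha and ARNT. In normal oxygen the prolyl hydroxylases encoded by Egln1, Egln2 and Egln3 mark HIF-1 alpha, the VHL protein binds the mark, and the protein is degraded.

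The arrays of WT, Smad2KO and Smad3KO resembled each other, with rank correlations of 0.907 to 0.928 across probe sets, while both Smad2KO_Smad3het arrays correlated with them at only 0.66 to 0.693. After scaling, the median signal was 30.7 to 35.7 on those 6 arrays and 103 and 107 on the Smad2KO_Smad3het pair, so the main tests used the 6 arrays and the pair is given by its values, except where a fit with all 8 arrays is named. All 7 CD4 T cell markers with a probe set were bright on all 8 arrays. The B cell markers were bright in 0 of 6 cases on the 6 arrays and in 3 of 6 on the Smad2KO_Smad3het arrays. In the same order, the myeloid markers were bright in 1 to 2 of 9 and in 6 of 9. The NK markers were bright in 0 of 3 and in 2 to 3 of 3, and the erythroid markers in 0 of 3 and in 1 of 3. The brightness filter lay below the median signals of the Smad2KO_Smad3het pair. Of all probe sets, 39.3% to 40.7% reached the filter on the 6 arrays, and 62.2% and 62.8% on that pair. The part of this shift in the marker counts was not tested. The CD8 markers were bright in 0 to 2 of 2 on the 6 arrays and in 1 to 2 of 2 on the other pair. Their summed signal was 68.2 to 161 on the 6 arrays and 1232 and 1582 on that pair. Most of the pair's sum was Cd8a (1074 without and 1568 with TGF-b). Cd8b1 was at 158 and 13.2 there, and at 38.4 to 92.9 on the 6 arrays. Smad2 signals in the Smad2KO arrays (1155 and 1046) were as high as in WT (1068 and 1031), and Smad3 signals were 614 and 730.2 in Smad3KO against 149 and 548 in WT. The place of those probe sets relative to the deleted parts is not known here, and these signals do not check the genotype labels.

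The DNA just upstream of 5 of the genes is shown because the results below turn on them: Egln3 and Ddit4 rose with TGF-b, Hk2 and Slc2a1 fell, and Tpi1 differed between the knockouts. Each line holds the 250 bases before the RefSeq transcription start on the gene's own strand, on build GRCm38.p6. Capitals mark ACGTG or GCGTG on either strand, the core letters of hypoxia response elements; CACGTG, the E-box that MYC and related factors bind, holds ACGTG within it. The windows are chr12:54203875-54204124 on the minus strand for Egln3, chr10:59951771-59952020 (minus) for Ddit4, chr6:82774455-82774704 (minus) for Hk2, chr4:119108495-119108744 (plus) for Slc2a1 and chr6:124814159-124814408 (minus) for Tpi1.
Egln3: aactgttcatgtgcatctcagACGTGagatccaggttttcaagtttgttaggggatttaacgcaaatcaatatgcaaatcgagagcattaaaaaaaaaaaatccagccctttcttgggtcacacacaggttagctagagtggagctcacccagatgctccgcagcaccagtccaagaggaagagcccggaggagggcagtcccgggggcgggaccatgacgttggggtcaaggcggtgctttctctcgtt
Ddit4: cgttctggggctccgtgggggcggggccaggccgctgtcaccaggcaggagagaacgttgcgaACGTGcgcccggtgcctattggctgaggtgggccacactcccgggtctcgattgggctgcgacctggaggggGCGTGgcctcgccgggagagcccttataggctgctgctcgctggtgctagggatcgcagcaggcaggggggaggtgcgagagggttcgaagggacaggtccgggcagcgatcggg
Hk2: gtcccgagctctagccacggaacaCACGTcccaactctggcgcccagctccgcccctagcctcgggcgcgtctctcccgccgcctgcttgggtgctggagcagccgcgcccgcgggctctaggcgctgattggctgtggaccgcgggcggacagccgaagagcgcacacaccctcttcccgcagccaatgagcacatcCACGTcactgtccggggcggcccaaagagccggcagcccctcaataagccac
Slc2a1: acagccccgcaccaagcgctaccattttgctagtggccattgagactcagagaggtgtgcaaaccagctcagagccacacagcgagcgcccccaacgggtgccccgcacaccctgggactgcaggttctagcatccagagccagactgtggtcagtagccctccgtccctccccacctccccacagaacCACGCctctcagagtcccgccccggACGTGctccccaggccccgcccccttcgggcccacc
Tpi1: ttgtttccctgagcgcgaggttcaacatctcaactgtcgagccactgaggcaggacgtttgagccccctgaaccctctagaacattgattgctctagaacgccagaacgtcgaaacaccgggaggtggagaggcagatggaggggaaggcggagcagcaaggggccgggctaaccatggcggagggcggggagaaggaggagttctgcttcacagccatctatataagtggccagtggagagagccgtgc
Egln3 held 1 ACGTG, Hk2 held 2, and Ddit4 and Slc2a1 each held 1 ACGTG and 1 GCGTG, while the Tpi1 window held neither. ACGTG lay in 46.3% of the 54 promoters of 38 listed genes and in 16.6% of all 32851 promoters of 27025 genes in the RefSeq table. GCGTG lay in 57.4% and 28.2%, CACGTG in 13% and 6.02%, and at least 1 of the core motifs in 79.6% and 38.6%. The promoters of the listed genes were also richer in G and C (median 61.6% against 52.4%) and in CpG (14 against 6 per window), and the part of base composition in these shares was not tested. Slc2a3 and Bnip3l were not in the promoter table. A match of letters is a description and not a binding site.

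With TGF-b, Egln3 (5.55-fold) and Ddit4 (1.49-fold) rose, and the hexokinase gene Hk2, both glucose transporter genes Slc2a1 and Slc2a3, the phosphofructokinase gene Pfkl and the lactate transporter gene Slc16a1 fell, by 1.19-fold to 1.41-fold. The test was limma's moderated test of the mean response over WT, Smad2KO and Smad3KO, with the genotype as a block and Benjamini-Hochberg adjustment over all 9454 genes at 0.05. It called 2 of the 35 genes higher, where 7.16% of all genes were called higher, and 5 of 35 lower, where 5.63% of all genes were called lower. In either direction this was 7 of 35, beside 12.8% of all genes. At an unadjusted p under 0.05 it was 15 of 35, beside 28.1%. Differences between genotypes in their response count as error in this test. In RNA of bulk cultures, fewer cells of a type and less RNA per cell cannot be told apart.

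The individual ratios leaned downward beyond the 5 called genes. The log2 ratio of floored signals, with TGF-b over without, was below 0 in all 3 genotypes for 17 of the 35 genes, beside 26.5% of all genes, and above 0 in all 3 for 4 (Arnt, Ddit4, Egln3 and Pdha1), beside 23%. The median ratio of the 35 genes was -0.19 in WT, -0.12 in Smad2KO and -0.09 in Smad3KO, with medians of -0.01, -0.03 and 0 over all genes. With arrays centred on their median it was -0.11 in each of the 3 genotypes, so the order of the genotypes depends on the scaling. For 8 genes (Hk2, Pdk1, Pdk3, Pfkl, Slc16a1, Slc2a1, Slc2a3 and Vhl) the 3 arrays with TGF-b all lay below the 3 without, which held for 14.2% of all genes. Only Arnt and Egln3 among the 35 had all 3 above, beside 13.3% of all genes. By steps of the pathway, the median of the mean responses was -0.36 for the 2 glucose transporters, -0.27 for 7 genes of the hexokinase and phosphofructokinase steps, -0.01 for 7 genes of lower glycolysis, -0.14 for 4 lactate genes, -0.19 for 3 pyruvate dehydrogenase genes, 0 for 6 genes of HIF and its control and -0.14 for 6 hypoxia targets.

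**Figure D1:**
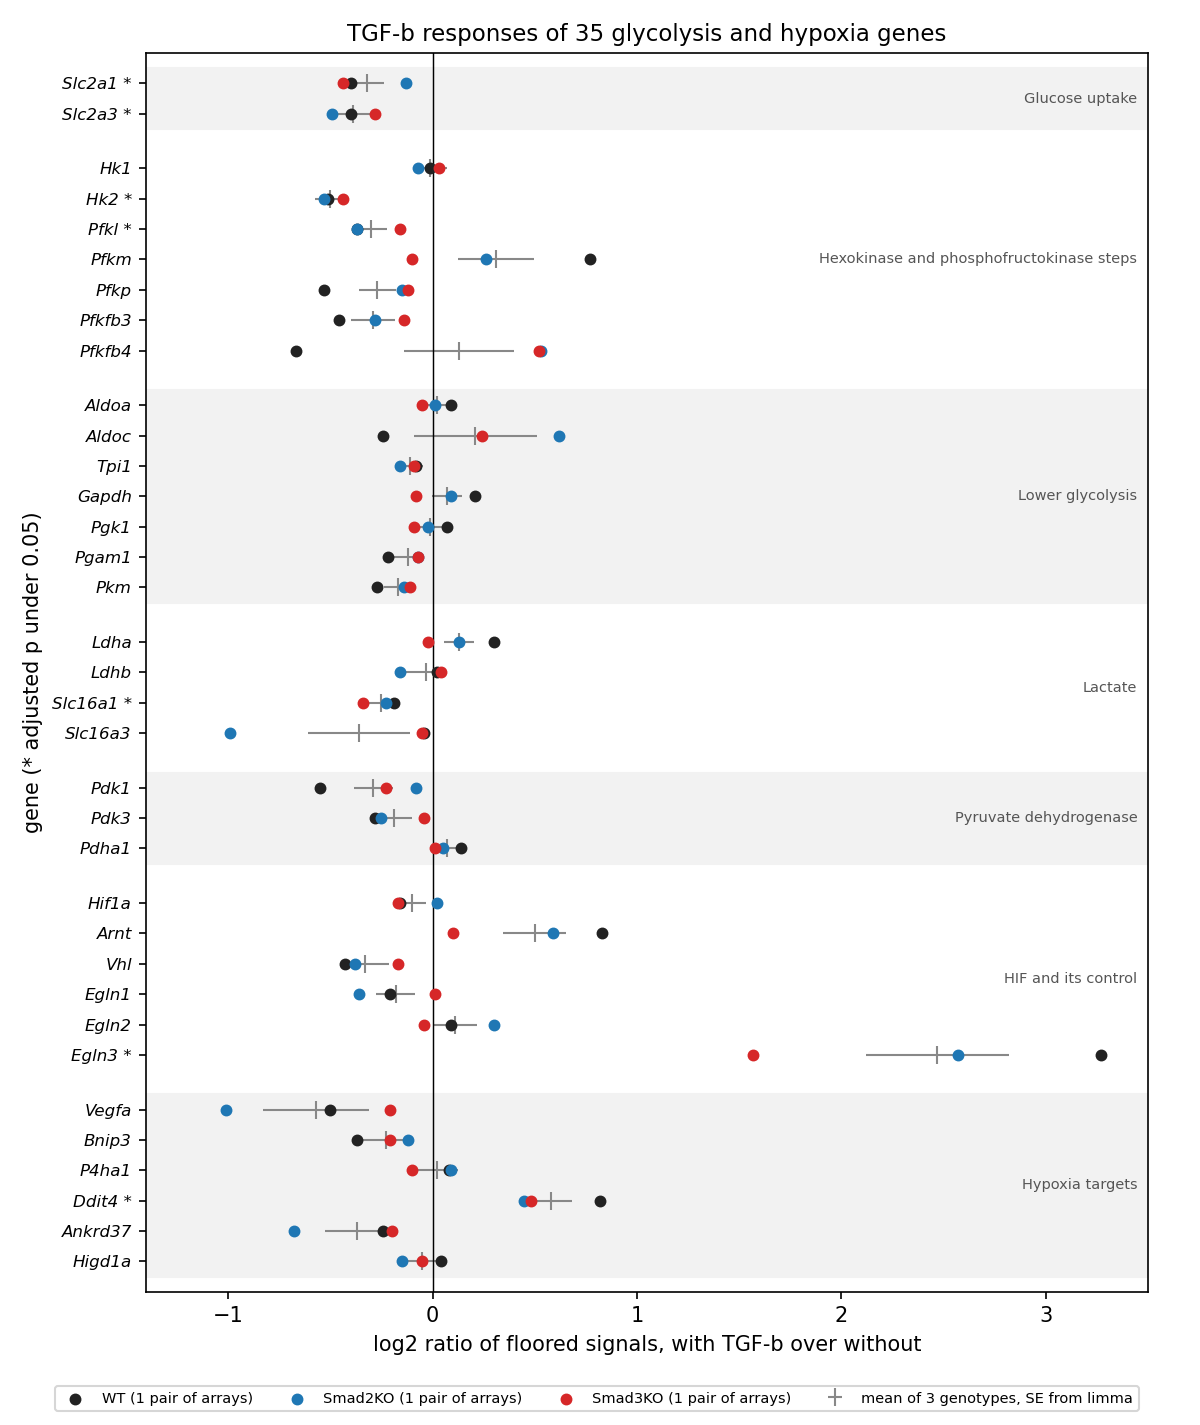
Log2 ratios of floored signals with TGF-b over without (x axis) for each of the 35 tested genes (y axis, grouped by pathway step), with 1 point per genotype, the mean of 3 genotypes as a tick and its SE from limma as a bar; asterisks mark an adjusted p under 0.05. Egln3 lies far to the right at 1.57 to 3.27, Ddit4 lies at 0.45 to 0.82, and the 5 genes called lower lie between -0.53 and -0.13.

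Both transporters that bring glucose into T cells were lower with TGF-b. The signals of Slc2a1, which encodes GLUT1, the main transporter of activated T cells, were 1657, 1616 and 2099.6 without TGF-b in WT, Smad2KO and Smad3KO, and 1254, 1476 and 1552 with it. All 3 arrays with TGF-b lay below all 3 without. The mean log2 response was -0.32 (SE 0.0821, adjusted p = 0.0239, limma), a 1.25-fold fall, and the other 2 Slc2a1 probe sets above the filter moved the same way. Slc2a3, which encodes the high-affinity transporter GLUT3, gave 862, 932 and 785 without TGF-b and 652, 662 and 647 with it. Again the groups did not overlap, and the arrays with TGF-b lay within a narrow band. Its mean response was -0.39 (SE 0.0884, adjusted p = 0.0133, limma), a 1.31-fold fall, with the same direction on 2 of 2 other probe sets. The Slc2a1 call was lost without the WT pair of arrays (adjusted p = 0.184) and without the Smad3KO pair (0.0561), and the Slc2a3 call without the WT pair (0.104) and without the Smad2KO pair (0.135). With no filter, plain variances and all 8 arrays both calls were lost as well (0.0613 to 0.36), and with no block that of Slc2a1 (0.153), so that 8 of 14 alternatives kept the Slc2a1 call and 9 of 14 the Slc2a3 call.

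At the hexokinase step Hk2, the inducible enzyme, fell, and Hk1, the constitutive enzyme, did not pass the test. Hk2 signals were 1400.2, 1349.8 and 1583 without TGF-b in WT, Smad2KO and Smad3KO, and 981, 934 and 1164 with it. Every array with TGF-b lay below every array without. The log2 ratios were -0.51, -0.53 and -0.44, with a mean of -0.50 (SE 0.0767, adjusted p = 0.00145, limma), a 1.41-fold fall, and the call held when any 1 of the 3 pairs was left out (adjusted p of 0.00052 to 0.0255). It was lost when the Smad2KO_Smad3het pair was added (0.0587). The Hk1 ratios were -0.01, -0.07 and 0.03, with signals of 913 to 1052 on the 6 arrays. A dimmer Hk1 probe set above the filter was higher with TGF-b in each genotype, with ratios of 0.29, 0.21 and 0.23. The Hk1 probe sets thus disagreed. Hk2 and Hk1 were not tested against each other.

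Among the phosphofructokinase genes, Pfkl, the liver-type subunit, fell. Its signals were 1547, 1616 and 1616 without TGF-b in WT, Smad2KO and Smad3KO and 1197, 1253 and 1447 with it, with no overlap between treatments. The mean response was -0.30 (SE 0.0787, adjusted p = 0.0283, limma), a 1.23-fold fall, seen in the same direction on 2 of 2 other Pfkl probe sets. The call held in 7 of 14 alternatives. It was lost without the WT pair (adjusted p = 0.181), without the Smad2KO pair (0.207), with the mean of the Pfkl probe sets in place of the brightest (0.0546), with no filter (0.0969), with no block (0.0849), with plain variances (0.151) and with all 8 arrays (0.379).

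The platelet-type subunit gene Pfkp gave signals of 2005, 1915 and 2099 without TGF-b in WT, Smad2KO and Smad3KO, and 1389, 1728 and 1929.7 with it. Its mean log2 response was -0.27 (SE 0.0891, adjusted p = 0.0749, limma), which passed only when the Smad3KO pair was left out (0.0219). Most of the Pfkp difference was in WT, at -0.53, against -0.15 in Smad2KO and -0.12 in Smad3KO. Pfkm, the muscle-type subunit, gave 99.3, 143 and 178 without TGF-b and 169.8, 170.2 and 166 with it, so the treatments overlapped (mean response 0.31, adjusted p = 0.302, limma).

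Pfkfb3 and Pfkfb4 make and break fructose 2,6-bisphosphate, the activator of phosphofructokinase. The ratios of Pfkfb3 were -0.46, -0.28 and -0.14 (adjusted p of the mean = 0.101, limma). Pfkfb4 was dim, with signals of 101, 65.4 and 70.8 without TGF-b in WT, Smad2KO and Smad3KO and 63.5, 94.8 and 101 with it. It was lower with TGF-b in WT and higher in both knockouts. Tested against the mean of both knockouts, the WT response of Pfkfb4 was lower by a log2 difference of -1.20 (SE 0.415), which did not pass (adjusted p = 0.609, limma).

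Lower glycolysis, from aldolase to pyruvate kinase, showed no called response to TGF-b in any of its 7 tested genes. The mean log2 responses were 0.02 for Aldoa, 0.21 for Aldoc, -0.11 for Tpi1 (triosephosphate isomerase), 0.07 for Gapdh, -0.01 for Pgk1 (phosphoglycerate kinase), -0.12 for Pgam1 (phosphoglycerate mutase) and -0.17 for Pkm (pyruvate kinase), with adjusted p of 0.119 to 0.912 in limma. The 4 other Aldoa probe sets above the filter had mean responses of -0.15, -0.02, -0.07 and -0.16, opposite in sign to the brightest set. Aldoc was near the floor of 32.5, with signals of 38.3, 40.2 and 65.1 without TGF-b in WT, Smad2KO and Smad3KO and 32, 61.6 and 76.9 with it. Gapdh was read from an Affymetrix control probe set at the 5′ end of its transcript. Bright genes as a whole moved with the treatment in WT: the median ratio of all genes with a mean signal over 8000, the range of Gapdh, Pgk1 and Ldha, was 0.23 in WT, 0.10 in Smad2KO and -0.02 in Smad3KO. The WT ratios of these 3 genes were 0.21, 0.07 and 0.30.

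**Figure D2:**
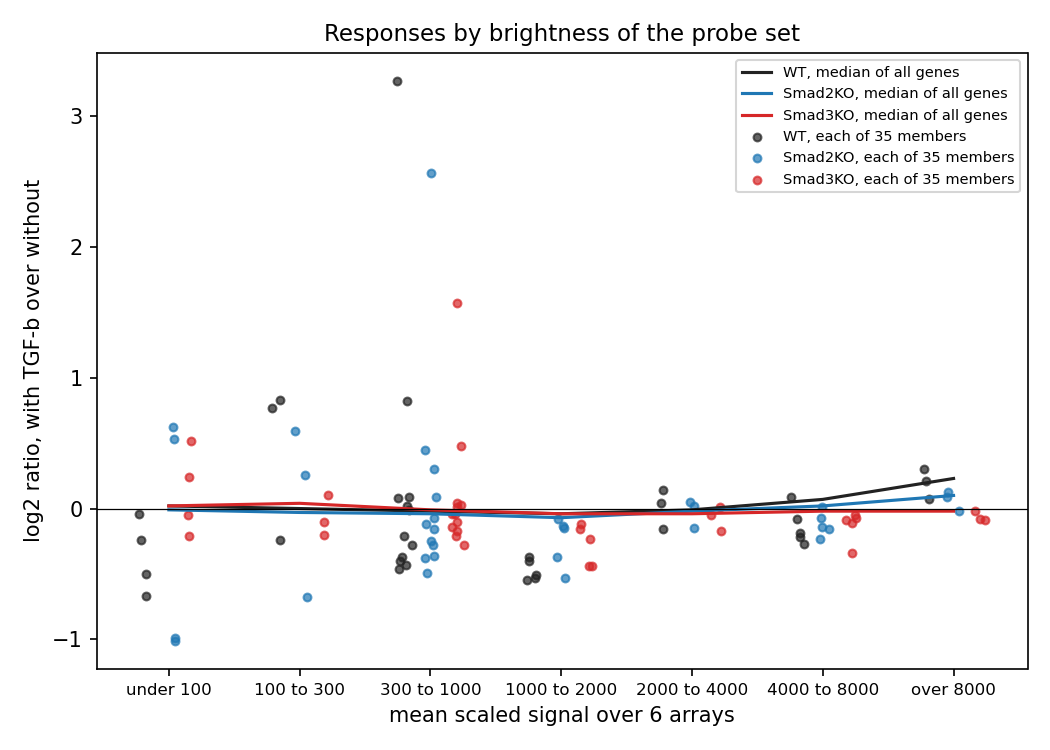
Log2 ratios with TGF-b over without (y axis) by the gene's mean scaled signal over 6 arrays (x axis, 7 ranges, points spread sideways within a range); lines are the medians of all genes in a range for each genotype and points are the 35 glycolysis and hypoxia genes. The medians stay near 0 except among genes over 8000, where WT reaches 0.23 and Smad2KO 0.10.

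On the lactate side the exporter gene Slc16a1 (MCT1) fell slightly, and no lactate dehydrogenase gene passed the test. Slc16a1 signals were 4625, 4727 and 5118 without TGF-b in WT, Smad2KO and Smad3KO, and 4063, 4019.5 and 4057 with it. The groups did not overlap. The mean response was -0.25 (SE 0.0668, adjusted p = 0.0289, limma), a 1.19-fold fall, and its call held in 6 of 14 alternatives. It was lost without any 1 of the pairs (0.0605 without WT, 0.186 without Smad2KO and 0.0901 without Smad3KO), with arrays centred on their median (0.067), with no filter (0.0872), with no block (0.0554), with plain variances (0.173) and with all 8 arrays (0.155). Ldha, the subunit that favours lactate formation, gave 9918, 10009 and 11776 without TGF-b and 12178, 10956 and 11585 with it (mean 0.13, adjusted p = 0.268, limma). Its signal was higher with TGF-b in WT and Smad2KO and slightly lower in Smad3KO. Ldhb ratios were 0.02, -0.16 and 0.04. Slc16a3, which encodes the exporter MCT4, was dim at 85, 93.1 and 92.3 without TGF-b and 82.7, 46.9 and 89.2 with it, with only the Smad2KO array with TGF-b apart from the rest.

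No pyruvate dehydrogenase gene passed the test. Pdk1, a kinase that inactivates the enzyme and a known HIF-1 target, gave 1579.7, 1367 and 1356 without TGF-b in WT, Smad2KO and Smad3KO and 1077, 1293 and 1159 with it. All 3 arrays with TGF-b were below all 3 without. The mean response was -0.29 (SE 0.095, adjusted p = 0.0726, limma), which passed only without the Smad2KO pair (0.0379), and 3 of 3 other Pdk1 probe sets had the same direction. Pdk3 had a mean of -0.19 (adjusted p = 0.184, limma), and Pdha1, a catalytic subunit of the enzyme itself, 0.07 (0.576).

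Of the genes that control HIF-1, Egln3 had the largest response of the 35. Egln3 encodes PHD3, a prolyl hydroxylase that is itself known to be induced by HIF. Its signals were 124, 97.8 and 187 without TGF-b in WT, Smad2KO and Smad3KO, and 1195, 582 and 556 with it. The lowest array with TGF-b was well above the highest without, and the WT array with TGF-b was the highest of all. In WT it rose 9.63-fold (log2 3.27), in Smad2KO 5.95-fold (2.57) and in Smad3KO 2.98-fold (1.57). Of all genes bright on either array of a pair, 4.53% were 2-fold or more higher with TGF-b in WT, 2.94% in Smad2KO and 1.9% in Smad3KO. Egln3 was the only such gene among the 35 in each of these genotypes. The mean log2 response was 2.47 (SE 0.35, adjusted p = 0.0208, limma), a 5.55-fold rise, whose call held in 11 of 14 alternatives. It was lost without the Smad2KO pair (adjusted p = 0.467), with the floor at the 25th percentile (0.0927) and with all 8 arrays (0.0964). A dimmer Egln3 probe set gave 35.7, 34.4 and 37.2 without TGF-b and 269, 203 and 149.8 with it. Its log2 ratios of 2.91, 2.56 and 2.01 fell in the same order, but its signals without TGF-b lay close to the floor of 32.5.

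The Egln3 signals of Smad3KO and Smad2KO were close with TGF-b (556 and 582) and further apart without it (187 and 97.8). The Smad2KO_Smad3het pair, which was not in the main tests, had a log2 ratio of 1.33, below the 1.57 of Smad3KO. The Egln3 response in Smad3KO was smaller than the mean of WT and Smad2KO by 1.35 on the log2 scale (SE 0.287, unadjusted p = 0.000275, limma). This difference did not pass in the limma fit with 1 added term (adjusted p = 0.0629). That fit leaves 1 residual degree of freedom per gene. The difference passed under quantile normalization (adjusted p = 4.8e-05), centring of arrays on their median (4.86e-05), a floor at the 25th percentile (0.000186) and cyclic loess (8.68e-05), and not under the other 6 alternatives run (0.0786 to 1). The WT response exceeded the mean of the others by 1.19 (SE 0.397, adjusted p = 0.604), and the Smad2KO response by 0.15 (SE 1.26, adjusted p = 1).

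**Figure D3:**
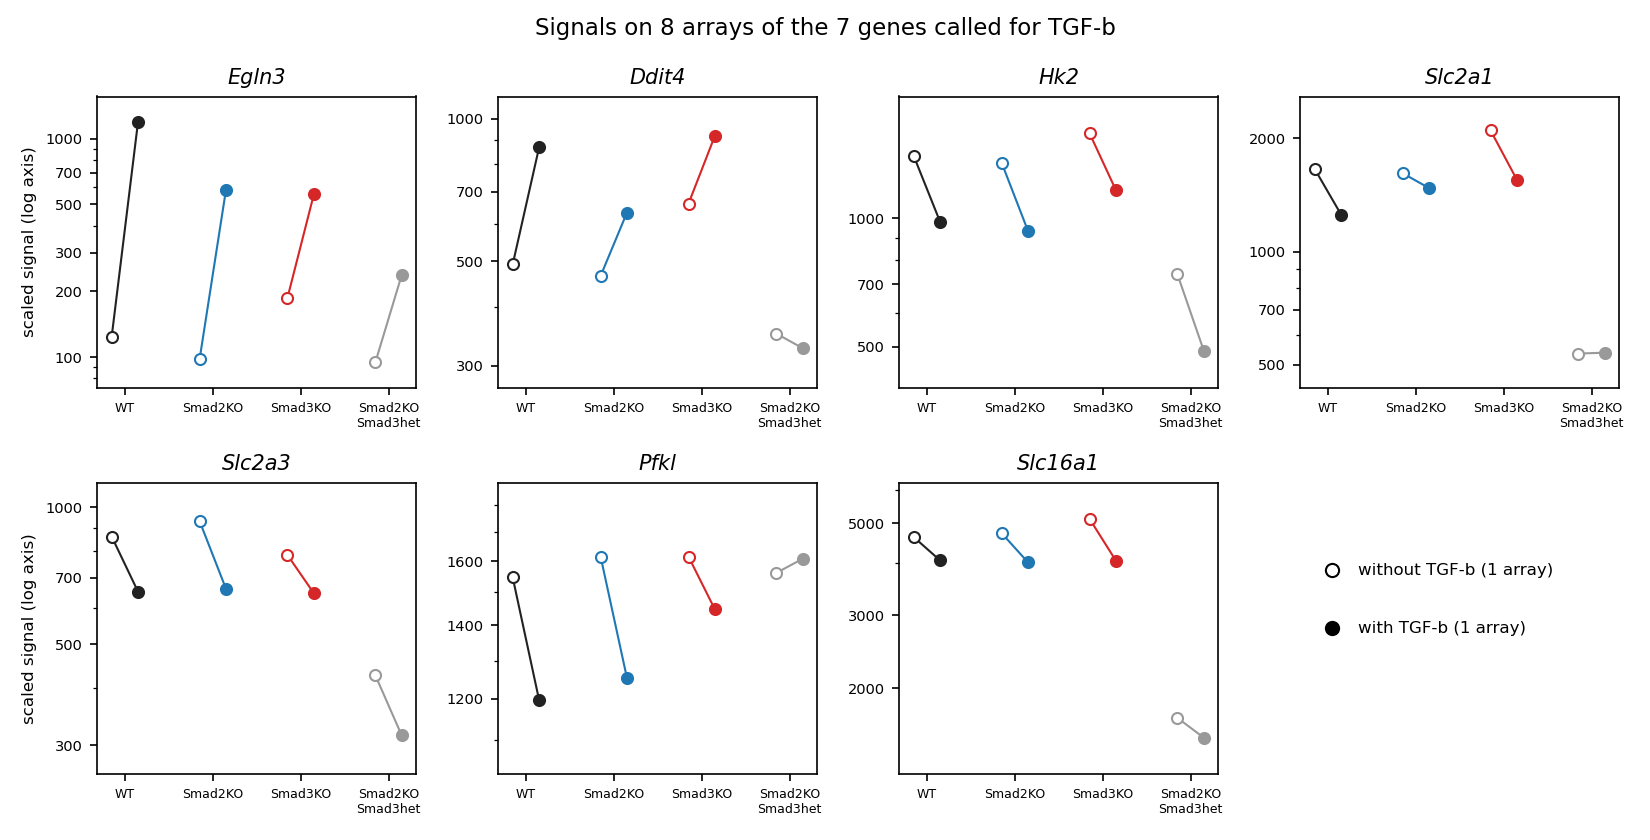
Scaled signals (y axis, log scale) on all 8 arrays for the 7 genes called for TGF-b, by genotype (x axis); open circles are arrays without and filled circles arrays with TGF-b, 1 array each, joined within a genotype, and the grey Smad2KO_Smad3het pair was not in the test. Egln3 climbs in every genotype, most in WT from 124 to 1195, while Hk2 and Slc2a3 drop in every genotype.

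The other genes that control HIF-1 did not pass the test. Arnt, the HIF-1 partner subunit, gave 154, 200.2 and 212 without TGF-b in WT, Smad2KO and Smad3KO and 274, 300.3 and 227 with it. Its mean response was 0.50 (SE 0.155, adjusted p = 0.0547, limma), and it passed without the Smad3KO pair (0.00415) and with the floor at the 25th percentile (0.04). Its 2 other probe sets above the filter had mean responses of 0.10 and -0.11, so the probe sets disagreed. Hif1a, the regulated subunit, was at 3043 to 3444 on the 6 arrays (mean response -0.10, adjusted p = 0.359). Vhl had a mean of -0.33 (adjusted p = 0.0893), which passed only without the Smad3KO pair (0.0485), Egln1 a mean of -0.18 (0.236) and Egln2 a mean of 0.11 (0.522).

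Among the hypoxia targets, Ddit4 rose. Ddit4 encodes REDD1, an inhibitor of mTORC1 that hypoxia and other stresses induce. Its signals were 492, 465 and 661 without TGF-b in WT, Smad2KO and Smad3KO, and 869, 633 and 919.6 with it. It was higher with TGF-b in each genotype, but the treatments overlapped, since the Smad3KO array without TGF-b lay above the Smad2KO array with it. The mean response was 0.58 (SE 0.101, adjusted p = 0.00281, limma), a 1.49-fold rise, and the call held in 10 of 14 alternatives. It was lost without the WT pair (0.0546), with plain variances (0.066), with no block (0.0902) and with all 8 arrays (0.354). Ddit4 was read from its only probe set.

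The remaining hypoxia targets had no called response. Vegfa, the angiogenic factor, was close to the filter, at 64.1, 92.3 and 84.5 without TGF-b in WT, Smad2KO and Smad3KO and 45.4, 46 and 73 with it. It was 2.01-fold lower with TGF-b in Smad2KO, the only difference of 2-fold or more downward among the 35 genes in the 3 tested genotypes. That far down lay 1.76% of all genes bright on either Smad2KO array, 2.89% in WT and 0.839% in Smad3KO. The mean Vegfa response was -0.57 (SE 0.259, adjusted p = 0.174, limma). Ankrd37 gave 173, 189 and 219 without TGF-b and 146, 118 and 191 with it (mean -0.37, adjusted p = 0.145, limma). Bnip3, a mitophagy receptor, had a mean of -0.23 (0.198), P4ha1, a collagen prolyl hydroxylase subunit, 0.02 (0.909), and Higd1a, a mitochondrial protein, -0.05 (0.653).

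Levels between genotypes were compared over both treatments, with the treatment as a block. In Smad2KO against WT, 0 of the 35 genes were called by limma, and 0 had an unadjusted p under 0.05, beside 1.02% (0.518% higher and 0.497% lower) and 9.38% of all genes. Egln3, at a log2 difference of -0.69 between Smad2KO and WT (adjusted p = 0.738), was called lower only in the fit without the Smad3KO pair (0.0395), among 12 alternatives. In Smad3KO against WT, 0 of 35 were called, beside 0.222% of all genes called higher and 0.243% lower (0.465% in all), and 9 had an unadjusted p under 0.05, beside 11%. In Smad3KO against Smad2KO, 2 of 35, Tpi1 and Ddit4, were called higher, where 1.54% of all genes were called higher, and 0 of 35 lower, beside 1.13%. Calls in either direction made up 2.68% of all genes, and those at an unadjusted p under 0.05, which took in 9 of the 35, made up 16.1%.

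Tpi1 had the smallest p of the 35 genes between the knockouts. Its signals were 7502 and 7057 on the Smad3KO arrays, 5585 and 5011 on the Smad2KO arrays and 5814 and 5498 on the WT arrays. Both Smad3KO arrays lay above the other 4. The level in Smad3KO exceeded that in Smad2KO by 0.46 on the log2 scale (SE 0.0798, adjusted p = 0.0122, limma), a 1.38-fold difference, and that in WT by 0.36 (adjusted p = 0.0822). The other 2 Tpi1 probe sets differed by 0.53 and 0.39 between the knockouts. Against Smad2KO, the call held in 8 of 12 alternatives (adjusted p of 0.00163 to 0.528), among them the fit without the WT pair (0.0212). Ddit4 was higher in Smad3KO than in Smad2KO by 0.52 (SE 0.123, adjusted p = 0.0478, limma), with signals of 661 and 919.6 against 465 and 633. Its call was lost without the WT pair (adjusted p = 0.0573) and held in 5 of 12 alternatives (0.0216 to 0.918).

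Smaller differences ran the same way across lower glycolysis and the hypoxia targets. For 8 of the 35 genes (Aldoa, Aldoc, Ankrd37, Bnip3, Higd1a, Pgk1, Pkm and Tpi1), both Smad3KO arrays lay above the 4 arrays of WT and Smad2KO, which held for 10.1% of all genes. Both lay below for 0 of the 35 genes, beside 7.33% of all genes. Seen the same way, the Smad2KO arrays lay above the other 4 for Hk1 alone and below them for Aldoa alone, beside 6.21% and 8.22% of all genes. The WT arrays lay above the other 4 for 0 genes and below them for 3 (Aldoc, Hk1 and Ldhb), beside 4.71% and 4.2%. The median difference between Smad3KO and Smad2KO was 0.18 over the 7 lower glycolysis genes and 0.30 over the 6 hypoxia targets, and each of these 13 genes was higher in Smad3KO. Of all 9454 genes 4791 were higher in Smad3KO, but of the bright ones most were: 238 of 325 with a mean signal of 4000 to 8000 and 109 of 126 above 8000, the ranges of 6 of the 7 lower glycolysis genes. Over all 35 genes the median was 0.15, and over all genes tested it was 0. The 6 genes of HIF and its control had a median of -0.08, with 1 of 6 higher in Smad3KO. Pgk1 was at 9504 and 8899.9 in Smad3KO and at 7789 to 8167 on the other 4 arrays, without a call against either genotype (adjusted p = 0.31 against Smad2KO and 0.376 against WT, limma). These orders of arrays are those of the brightest probe sets. On another bright Pgk1 set, Smad3KO (7141 and 6832) lay within the other 4 (6510.3 to 7501), with a difference from WT of -0.05. On the remaining Pgk1 set, Smad3KO (7668 and 7224) lay above the other 4 (6363 to 6684). The other Aldoa sets were split in the same way.

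Over all genes with a mean signal of 4000 to 8000, the range of Aldoa, Tpi1, Pgam1 and Pkm, the median difference between Smad3KO and Smad2KO was 0.08, and over those above 8000 it was 0.11. The differences of those 4 genes were 0.26, 0.46, 0.16 and 0.17. The part of brightness in the differences of the listed genes was not tested. Other probe sets above the filter had the same sign for Aldoa (0.03, 0.22, 0.33 and 0.09), Tpi1 (0.53 and 0.39), Gapdh (0.19 and 0.17), Pgk1 (0.03 and 0.18) and P4ha1 (0.08), while a dim Higd1a set differed by -1, opposite to the 0.22 of the brighter set. When each array was centred on its median in place of its trimmed mean, the median difference of all genes between Smad3KO and WT moved from 0.01 to 0.18. That of the 35 genes moved from 0.10 to 0.28, and 6 of them were then called higher in Smad3KO than in WT (Slc2a1, Hk2, Pfkp, Tpi1, Pkm and Bnip3). The centring thus moved the listed genes and all genes together.

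**Figure D4:**
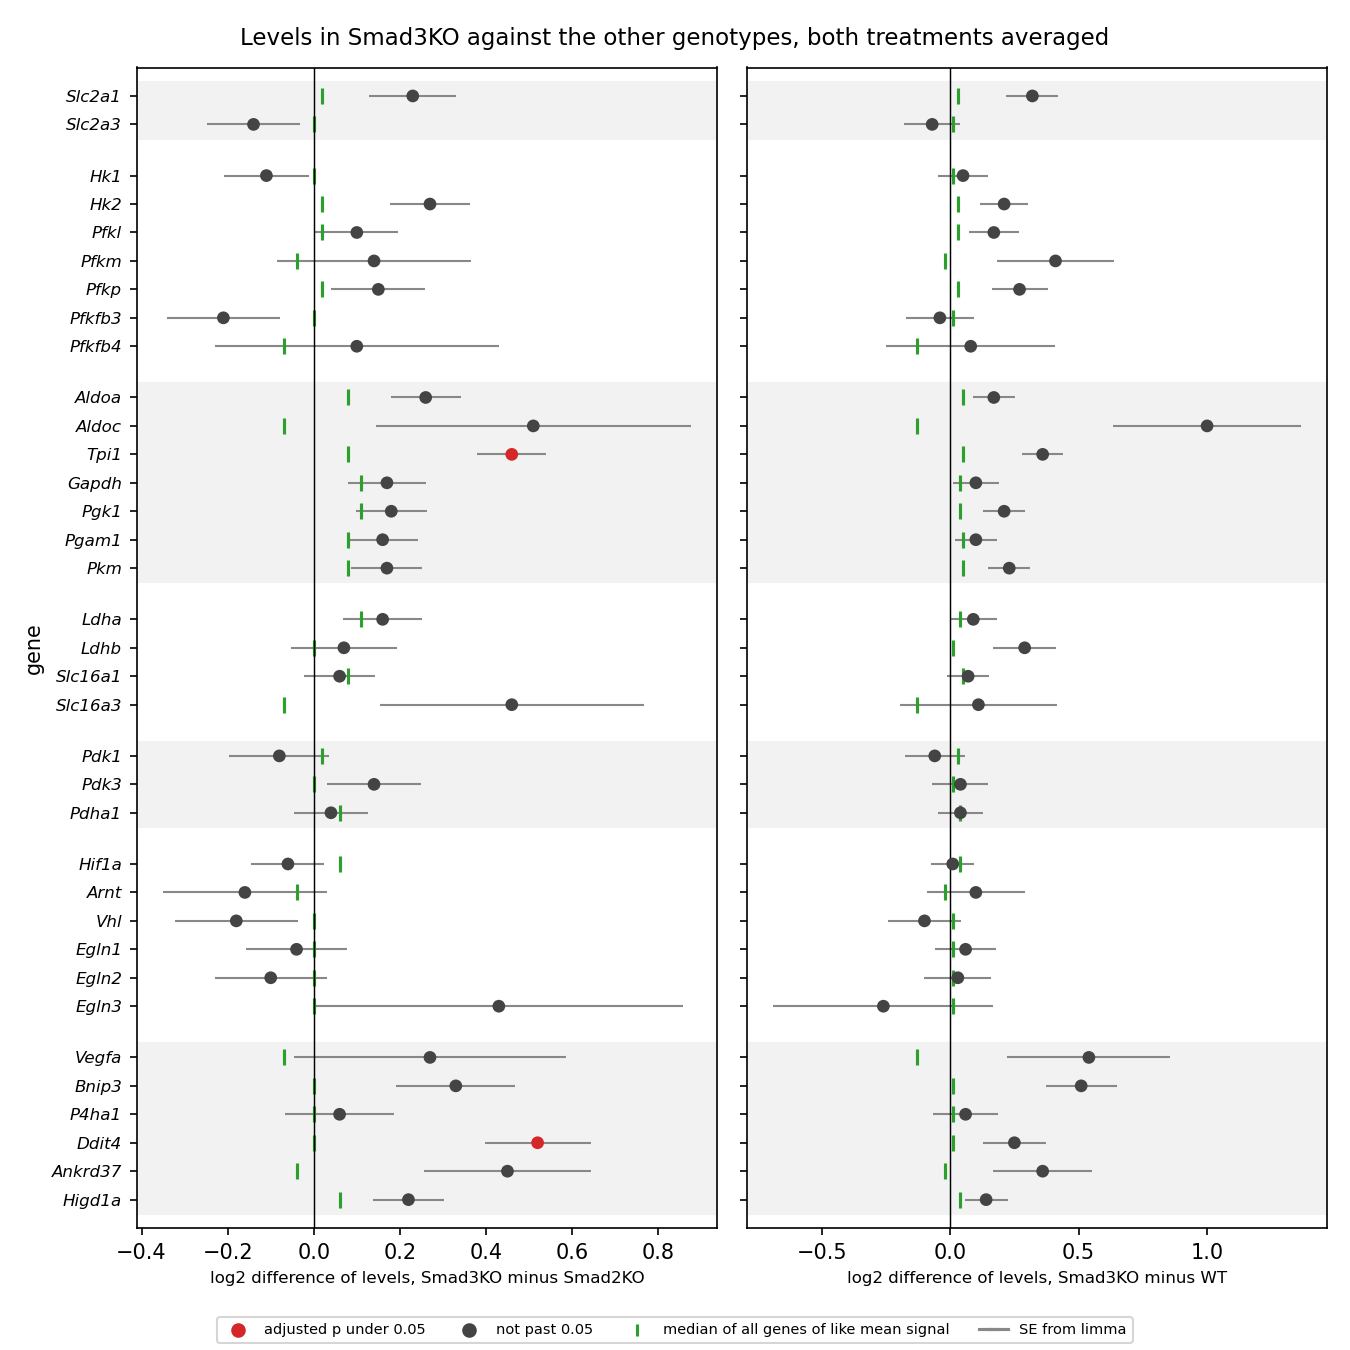
Log2 differences of levels between Smad3KO and Smad2KO (left) and between Smad3KO and WT (right) on the x axes for each of the 35 genes (y axis), averaged over both treatments, with SE bars from limma; red points passed an adjusted p of 0.05, and green ticks are the medians of all genes of like mean signal. Tpi1 at 0.46 and Ddit4 at 0.52 are the red points, and every gene from Aldoa to Pkm lies to the right of 0 in both panels.

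None of the 35 responses was called different between genotypes by limma. With 1 residual degree of freedom per gene, 0.0212% of all genes were called for a WT response apart from the others, 0.0106% for Smad2KO and 0.402% for Smad3KO. At an unadjusted p under 0.05, the WT response of 4 genes (Egln3, Pdk1, Pfkfb4 and Pfkp) stood apart, beside 7.43% of all genes, the Smad2KO response of 0, beside 2.31%, and the Smad3KO response of 2 (Arnt and Egln3), beside 8.41%. The Pdk1 response in WT was lower than the mean of the others by a log2 difference of -0.40 (SE 0.15, adjusted p = 0.634), and that of Pfkp by -0.39 (SE 0.128, adjusted p = 0.59).

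The Smad2KO_Smad3het pair kept some of these patterns and not others. Egln3 was at 94.8 without and 238 with TGF-b, a 2.51-fold difference, but its dimmer probe set was at 173 and 119. Hk2 was lower with TGF-b (739 and 489), as was Slc2a3 (427 and 315), while Slc2a1 was level (536 and 539). Ddit4 was at 351 and 327 and Pfkl at 1562 and 1609, each opposite in direction to the tested mean response. The 2 genes that were 2-fold or more higher with TGF-b in this pair were Arnt and Egln3, beside 5.94% of all genes, and 0 of the 35 were 2-fold lower, beside 5.9%. The median ratio of the 35 genes was 0.01. Both arrays of the pair lay below all 6 others for 16 of the 35 genes and above all 6 for 8, beside 47.8% and 18.7% of all genes, and the part of their different signal distribution in these values was not tested.

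Other genes of the same pathways, 99 by list, moved in both directions. Of 72 tested, 8 rose with TGF-b and 9 fell by the limma test of the mean response, where 7.16% of all genes were called higher and 5.63% lower. In the hypoxia response 4 of 23 rose and 4 fell; in glycolysis and its side paths 1 of 16 rose and 2 fell; in the pentose phosphate pathway 2 of 8 rose and 0 fell; in pyruvate entry 0 of 9 rose and 1 fell; and among growth and energy regulators 1 of 16 rose and 2 fell. The median mean response of the 72 genes was -0.04, and of all genes -0.02.

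The 10 of these with the smallest p included hypoxia genes that moved in both directions. Of the hypoxia response list, 4 genes were called higher, and only Ier3 of them was among these 10. Ak4, a mitochondrial adenylate kinase known as a HIF-1 target, gave 275, 268 and 296 without TGF-b in WT, Smad2KO and Smad3KO and 96.9, 159.5 and 167 with it, a mean log2 response of -1.03 (SE 0.168, adjusted p = 0.00217, limma). Every array with TGF-b was below every array without. Hilpda, a lipid droplet protein induced by hypoxia, had a mean of -0.71 (adjusted p = 0.0079), Siah2, a ubiquitin ligase that targets prolyl hydroxylases, -0.61 (0.00906), and Cited2, which competes with HIF-1 alpha for the coactivator p300, -0.59 (0.00447). Ier3, an early response gene, rose by 1.20 (SE 0.293, adjusted p = 0.0207), with the WT array without TGF-b at 15.4, under the floor.

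Outside the hypoxia list, Prps1, which makes the ribose donor for nucleotide synthesis, rose with the smallest p of these 10. Its signals were 2398, 2422 and 2299 without TGF-b in WT, Smad2KO and Smad3KO and 4764, 4065 and 3286 with it. The mean was 0.75 (SE 0.0877, adjusted p = 0.000316, limma), with log2 ratios of 0.99, 0.75 and 0.52. Irf4, a transcription factor of T cell activation known to support glycolytic genes, rose by 0.40 (adjusted p = 0.00196), and Eno3, the muscle-type enolase, by 0.54 (0.00939). Minpp1, an inositol polyphosphate phosphatase that also removes a phosphate from 2,3-bisphosphoglycerate, fell by 0.33 on the log2 scale (0.0133), and Akt2, a kinase of insulin signalling, by 0.36 (0.018). Myc, a regulator of glycolytic genes in activated T cells, gave 3764, 4202 and 3667 without TGF-b and 3319.8, 3568 and 3011 with it, a mean of -0.23 (SE 0.0655, adjusted p = 0.0364, limma).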

How the data were processed

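Splenic CD4 T cells of 4 genotypes with and without TGF-b gave 8 single-colour Affymetrix arrays, 1 per group. The authors deposited a table of linear probe set intensities, made with GCOS 1.4 per the submitters' processing notes; the sources used here do not name its algorithm. The number of arrays limits the precision.

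Scaling brought all arrays to a common 2% trimmed mean, signals under the median of the 6 WT, Smad2KO and Smad3KO arrays (32.5) were raised to that floor, and values were put on the log2 scale. A gene was read from its brightest probe set with 1 gene symbol in the platform annotation (of 45101 probe sets, 34958 had 1 symbol, 932 several and 9211 none) and tested if that set reached 65, which is 2 times the floor, on any of the 6 arrays. Entrez identifiers matched 37 listed genes to RefSeq, which changed 0 symbols. Mean responses and levels were tested with limma 3.58.1 in R 4.3.3 (trend and robust settings, 2 residual degrees of freedom), and differences between responses with 1 added term. The script was tested on simulated data. Figures used matplotlib 3.10.9.

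The genes and lists were chosen with earlier results of these data known. All listed genes were reported, with values per array for those past a threshold and for the 5 largest rises and falls in each genotype. Of the other pathway genes, up to 10 with the smallest p were named, and Myc as a reference. Alternatives were other scalings, floors, filters and probe set rules, all 8 arrays, plain limma variances, no block, each genotype's pair left out, and cyclic loess, the last chosen after seeing the data.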

Additional observations from a re-analysis of the deposited data

How the results depend on the processing

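The limits come from the number of arrays: with 1 per group, leaving out a genotype leaves 2 pairs, and only Hk2 of the 7 called responses kept its call in each such fit. Of the counts of responses, the 2 listed genes higher with TGF-b became 0 with all 8 arrays, 1 with plain limma variances, 1 with no block, and 1 to 3 when a pair was left out; with the floor at the 25th percentile the count stayed at 2, but Egln3 was lost and Arnt gained. The 5 listed genes lower became 4 with median centring (Slc16a1 lost), 4 with the mean of probe sets (Pfkl lost), 1 with no filter, 0 with all 8 arrays, 1 with plain variances, 2 with no block, and 1 to 5 when a pair was left out. Over all genes, the 677 higher became 309 with no filter, 15 with all 8 arrays, 267 with plain variances, 369 with no block, and 250 to 918 when a pair was left out, and the 532 lower became 160, 4, 126, 230, and 152 to 887. The 2 genes higher in Smad3KO than in Smad2KO became 1 with log2 of the signal plus 16, 0 with no filter, 1 with the filter on mean signal, 0 with all 8 arrays, 0 with plain variances, 0 with no block and 1 without the WT pair. The 0 genes higher in Smad3KO than in WT became 6 with arrays centred on their median and 1 with the floor at the 25th percentile, and the 0 lower in Smad2KO became 1 without the Smad3KO pair. The 0 genes whose Smad3KO response differed became 1, Egln3, under quantile normalization, median centring, the floor at the 25th percentile and cyclic loess. The median response of the listed genes in WT, -0.19, was -0.11 with median centring and -0.12 with all 8 arrays. Some of these settings use fewer samples or test fewer genes. Others test more genes than the 9454 of the main fit: 12039 with no filter and 13611 with all 8 arrays. The cause of the changes was not tested. None of the results recomputed here changed direction while called. No paired analysis by replicate number was possible because each group is 1 array; the main response test pairs arrays by genotype, and the values with no block are those above.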
